A study of Mus musculus with 9 samples.

Results

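Glycolysis and hypoxia genes were followed through the 9 libraries as a set of 36 genes picked by name. They are the transporters and enzymes that carry glucose to pyruvate and lactate, the hypoxia-inducible factor subunit Hif1a, and genes that hypoxia-inducible factors (HIFs) are known to switch on. All 36 were found among the 33233 genes of the count tables, and all 36 passed the filter on low counts that left 16532 genes to test. RNA was sequenced from KH2 cells, a mouse embryonic stem (ES) cell line, in CBFA2T2 knockout cells, in cells labelled PRDM14 knockout and in wild-type cells, with 3 libraries in each group. All groups were KH2 cells cultured with Lif over feeder cells, and the feeders were taken away before the RNA was made. CBFA2T2 belongs to the MTG co-repressors, and PRDM14 is a zinc-finger factor known from pluripotent cells and the germline. How the alleles were disrupted, and whether a group was 1 clone or several, is not given in the sources used here, so p values measure only the spread between these libraries, which may be technical.

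Glycolysis splits glucose into pyruvate in the cytosol, and lactate dehydrogenase turns pyruvate into lactate, which restores the NAD+ that the pathway consumes. When oxygen is plentiful, prolyl hydroxylases mark the HIF alpha subunits for destruction. When it is scarce, the subunits persist, pair with ARNT, bind DNA at sites with the core ACGTG or GCGTG and switch on glucose transporters, glycolytic enzymes and the hydroxylases themselves. Mouse ES cells and the later, primed pluripotent cells are known to differ in how far they rely on glycolysis.

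Library totals ran from 10309196 to 20129490 counts. Levels are given as CPM, counts scaled by library size, and RPKM is CPM per kilobase of exon. Exon length is the union over all transcripts of a gene. It can exceed that of any single transcript (for Pfkp, 13401 bases beside 4145 in its longest coding transcript). Shares and ranks per kilobase therefore hold for that length alone. Cbfa2t2 (ENSMUSG00000038533, chromosome 2, 154436481 to 154539356) stood at 99.2, 44.9 and 84.8 CPM in the CBFA2T2 knockout libraries and at 166, 160 and 177 CPM in wild type. In the libraries labelled PRDM14 knockout it stood at 173, 158 and 146 CPM. Prdm14 (ENSMUSG00000042414, chromosome 1, 13113457 to 13127163) went against its label, with 41.4, 42.2 and 63.5 CPM in the libraries labelled PRDM14 knockout and 18.4, 14.6 and 14.98 CPM in wild type. Those libraries are therefore called PRDM14-labelled, and every direction drawn from them rests on the label. Prdm14 was above wild type in the CBFA2T2 knockout libraries as well, at 55.0, 56.3 and 67.6 CPM. Replicate 1 of the PRDM14-labelled libraries stood apart on chromosome 6: its median log2 difference from the wild-type mean over 551 genes there was 0.38, against -0.05 to 0.04 on its other 19 chromosomes and -0.08 to 0.01 on chromosome 6 in the other 8 libraries. Of the 36 genes, 7 lie on chromosome 6 (Slc2a3, Hk2, Eno2, Tpi1, Gapdh, Ldhb and Kdm3a), and values without that library are given for them as well. Markers of ES cells summed to 3960 to 4465 CPM in the CBFA2T2 knockout, 4935 to 5534 CPM in the PRDM14-labelled group and 6716 to 6788 CPM in wild type, with none of the 15 at 0. Of these 15, 1 was called higher and 12 lower in the CBFA2T2 knockout (86.7%, beside 38.5% of all genes called). In the PRDM14-labelled group 1 was called higher and 10 lower (73.3%, beside 29.9%). The 24 markers of feeder fibroblasts summed to 2188 to 3801 CPM in the CBFA2T2 knockout, 2115 to 3750 CPM in the PRDM14-labelled group and 1824 to 1913 CPM in wild type. Replicate 2 had the highest sum in each knockout group. Replicates 1 and 3 had 2488 and 2188 CPM in the CBFA2T2 knockout and 2115 and 2603 CPM in the PRDM14-labelled group. Of the 22 feeder markers tested, 7 were called higher and 0 lower in the CBFA2T2 knockout (31.8%). Of all genes, 18.9% were called higher there and 38.5% in either direction. In the PRDM14-labelled group 5 feeder markers were called higher and 0 lower (22.7%), beside 14.6% of all genes higher and 29.9% in either direction. In each comparison 18 of the 22 had a positive fold change. Their median log2 fold change was 0.54 in the CBFA2T2 knockout and 0.63 in the PRDM14-labelled group. At most 1 feeder marker was at 0 in a library (Fap or Lum). The part that the marker shifts had in the results below was not tested.

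Promoter sequence was taken from RefSeq (GRCm38.p6, from 250 bases before to 50 after each transcription start), since a HIF core motif near the start is what links many of these genes to the factor. Entries were found for 33 of the 36 genes, with 51 promoters, and Slc2a3, Bnip3l and Ndrg1 had none in the table. The promoters shown are those of 4 genes called higher in both knockout groups, the ones whose larger adjusted p of the 2 comparisons was lowest, and capitals mark every ACGTG or GCGTG read on either strand (on the opposite strand CACGT or CACGC). They are printed 5′ to 3′ on the strand of the gene.
Ldhb, chr6:142507908-142508207, minus strand: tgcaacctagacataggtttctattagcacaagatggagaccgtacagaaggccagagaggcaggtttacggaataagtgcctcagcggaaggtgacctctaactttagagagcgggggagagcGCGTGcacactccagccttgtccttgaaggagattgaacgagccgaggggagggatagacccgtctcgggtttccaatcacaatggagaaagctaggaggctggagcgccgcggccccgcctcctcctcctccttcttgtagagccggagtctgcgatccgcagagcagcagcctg
P4ha1, chr10:59323046-59323345, plus strand: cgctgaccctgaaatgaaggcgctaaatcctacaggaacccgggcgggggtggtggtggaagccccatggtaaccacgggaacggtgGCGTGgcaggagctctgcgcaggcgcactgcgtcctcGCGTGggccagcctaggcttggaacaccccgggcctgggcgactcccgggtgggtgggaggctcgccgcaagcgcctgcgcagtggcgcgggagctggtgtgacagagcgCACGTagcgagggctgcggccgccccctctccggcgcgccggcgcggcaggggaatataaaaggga
Slc16a3, chr11:120948817-120949116, plus strand: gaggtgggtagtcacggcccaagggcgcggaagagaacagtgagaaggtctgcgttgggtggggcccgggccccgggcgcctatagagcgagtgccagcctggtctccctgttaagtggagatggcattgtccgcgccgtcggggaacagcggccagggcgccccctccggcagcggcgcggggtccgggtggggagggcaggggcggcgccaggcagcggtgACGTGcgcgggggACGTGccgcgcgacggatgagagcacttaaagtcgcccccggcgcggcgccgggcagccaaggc
Egln1, chr8:124949205-124949504, minus strand: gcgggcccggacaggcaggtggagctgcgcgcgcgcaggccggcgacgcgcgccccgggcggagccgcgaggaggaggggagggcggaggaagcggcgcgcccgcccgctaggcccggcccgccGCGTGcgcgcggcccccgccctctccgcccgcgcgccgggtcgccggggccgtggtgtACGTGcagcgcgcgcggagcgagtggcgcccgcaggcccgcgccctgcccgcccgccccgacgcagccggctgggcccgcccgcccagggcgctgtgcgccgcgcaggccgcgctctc

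Counted from the start site, the match in the Ldhb promoter began at -126 and was a GCGTG. P4ha1 had a GCGTG at -163 and at -126 and an ACGTG on the opposite strand at -16, Slc16a3 an ACGTG at -27 and at -14, and Egln1 a GCGTG at -126 and an ACGTG at -68. A match to either core stood in 41 of the 51 promoters (80.4%), against 60.8% of 13511 promoters of the genes tested and 43.8% of all 32851 promoters. ACGTG alone stood in 52.9% of the 51 promoters, 24.8% of those of genes tested and 19.6% of all. The 51 promoters belong to 33 genes, the 13511 to 10557 genes and the 32851 to 27025. Overlapping promoters of 1 gene, as for Ak4, count a shared match more than once, and no share per gene was taken. The median number of CpG pairs per promoter was 23 in the 51, 20 in the genes tested and 7 in all, and each core holds a CpG, so the shares are a description of the sequence and not of binding.

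**Figure D1:**
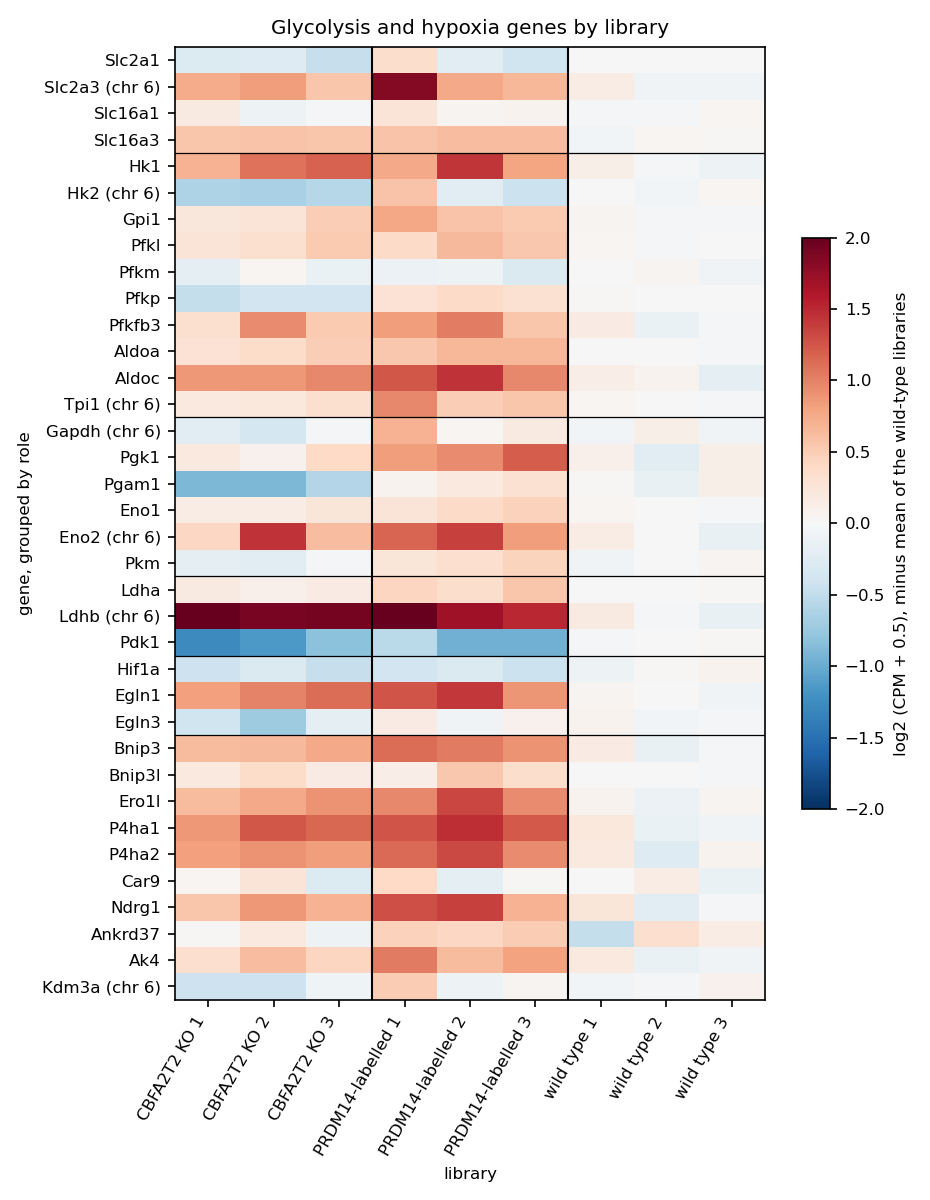
Levels of the 36 genes (rows, grouped by role, those on chromosome 6 marked) in each of the 9 libraries (columns), as log2 of CPM plus 0.5 minus the mean of the 3 wild-type libraries, with red above and blue below wild type. Ldhb is the reddest row in both knockout groups, Pdk1 and Hif1a are blue in all 6 of their libraries, and Slc2a3 and Hk2 stand out in replicate 1 of the PRDM14-labelled group.

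More of the 36 genes were higher than lower in each knockout group. In the CBFA2T2 knockout, 16 rose, 5 fell and 15 were not called, whereas 38.5% of all genes tested were called there, 18.9% higher and 19.6% lower (edgeR's quasi-likelihood test, adjusted p under 0.05). In the PRDM14-labelled libraries, 24 rose, 2 fell and 10 were not called, beside 29.9% of all genes, 14.6% higher and 15.3% lower. With a filter at a mean of 5 CPM, 11915 genes were tested, 35 of the 36 among them. That fit called 5385 of all genes in the CBFA2T2 knockout, where 19 of the 35 rose and 5 fell. In the PRDM14-labelled group it called 4424 of all genes, and 24 of the 35 rose and 2 fell. The median log2 fold change of the 36 was 0.24 in the CBFA2T2 knockout (0.01 over all genes) and 0.56 in the PRDM14-labelled group (0.02 over all genes). Every library of the CBFA2T2 knockout lay above every wild-type library for 21 of the 36 genes and below for 8, beside 26.1% and 27.6% of all genes (53.7% in all). In the PRDM14-labelled group this held for 26 and 3 genes, beside 22.1% and 23.0% (45.1% in all). Scaled by library totals alone, calls over all genes leaned higher in the CBFA2T2 knockout (61.2% of calls in place of 49.1%), and 20 of the 36 rose and 5 fell. The 2 comparisons use the same wild-type libraries, so values for both are set side by side and not counted as separate evidence. With 1 library at a time, the median log2 difference of the 36 from the wild-type mean was 0.20, 0.26 and 0.36 in the CBFA2T2 knockout libraries, 0.57, 0.55 and 0.54 in the PRDM14-labelled libraries and 0.04, -0.01 and -0.02 in wild type. Over the 29 genes off chromosome 6 it was 0.20, 0.26 and 0.40 in the CBFA2T2 knockout libraries and 0.46, 0.57 and 0.54 in the PRDM14-labelled ones. The knockout groups did not overlap on either median, but came close on the second. Wild type lies near 0 because its own libraries set the baseline. The genes were chosen with earlier results of these data known, so these medians are a description and not a test. In the RNA of whole cultures, fewer cells of a type and less RNA per cell cannot be told apart.

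**Figure D2:**
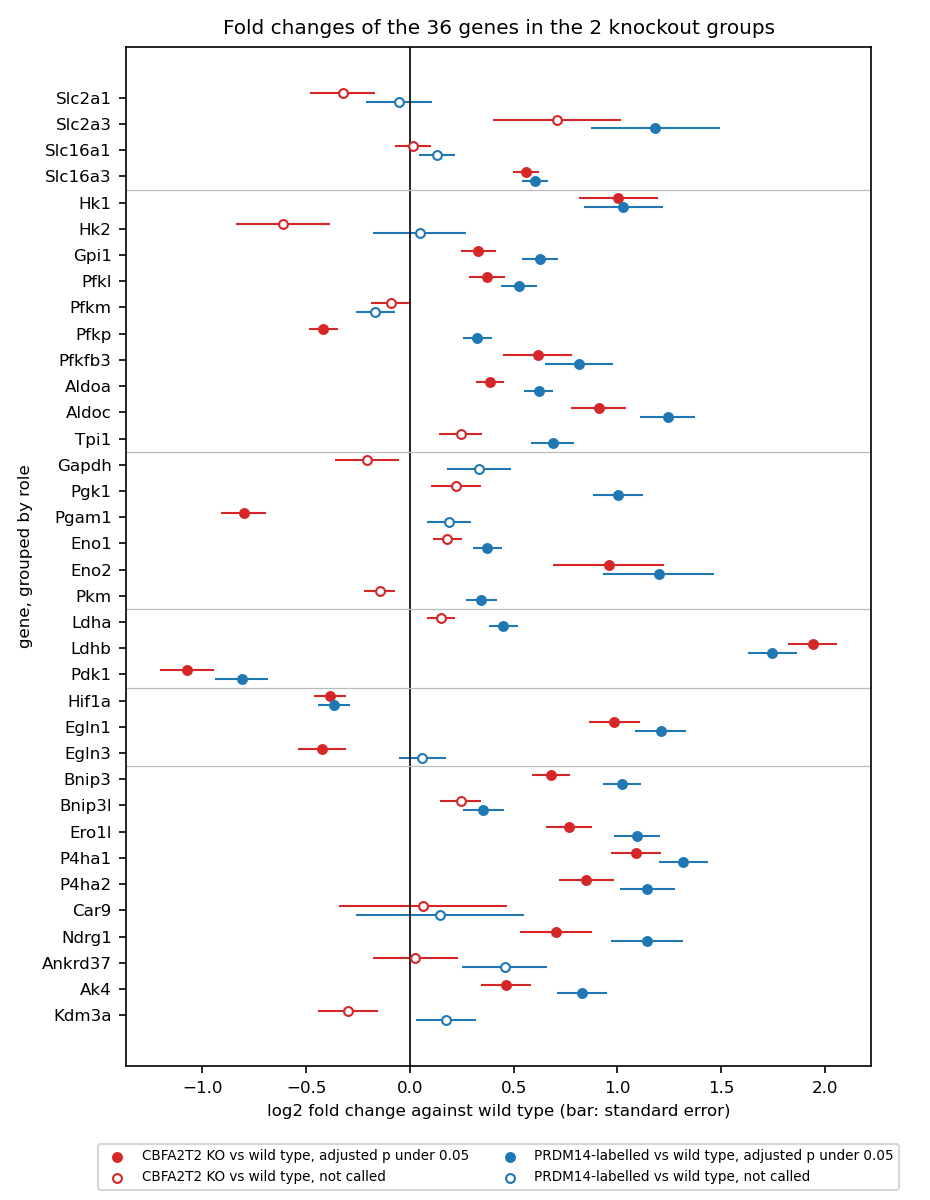
Log2 fold change against wild type (x axis) of the 36 genes (y axis, grouped by role) in the CBFA2T2 knockout (red) and the PRDM14-labelled libraries (blue), with bars for the standard error and filled points for an adjusted p under 0.05. Ldhb lies farthest right in both comparisons (1.94 in the CBFA2T2 knockout, 1.75 in the PRDM14-labelled group) and Pdk1 farthest left (-1.07 in the CBFA2T2 knockout, -0.81 in the PRDM14-labelled group). Pfkp is filled on opposite sides of 0 (-0.42 in the CBFA2T2 knockout, 0.33 in the PRDM14-labelled group).

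Transport of glucose and lactate changed in part. Slc16a3, the transporter that exports lactate from strongly glycolytic cells, was at 319, 324 and 320 CPM in the CBFA2T2 knockout, 323, 334 and 336 CPM in the PRDM14-labelled group and 209, 224 and 221 CPM in wild type. The knockout libraries lay above all wild-type libraries, with log2 fold changes of 0.56 ± 0.06 in CBFA2T2 knockout cells (SE, adjusted p = 2.17e-05) and 0.60 ± 0.06 in the PRDM14-labelled group (adjusted p = 1.86e-05). Slc16a1, its more widely expressed relative, had 250 to 306 CPM in the CBFA2T2 knockout, 279 to 323 CPM in the PRDM14-labelled group and 266 to 276 CPM in wild type. It was not called in either comparison. Slc2a3, the high-affinity glucose transporter GLUT3, was at 2504, 2684 and 2192 CPM in the CBFA2T2 knockout, 5338, 2524 and 2375 CPM in the PRDM14-labelled group and 1660, 1428 and 1423 CPM in wild type. All 6 knockout libraries were above wild type, and replicate 1 of the PRDM14-labelled group held 2.18 times the mean of its other two. With that library Slc2a3 rose by 1.18 ± 0.31 on the log2 scale in the PRDM14-labelled group (adjusted p = 0.0279) and missed the threshold in the CBFA2T2 knockout (0.71 ± 0.31, adjusted p = 0.114). Without it the values were 0.70 ± 0.09 in the PRDM14-labelled group and 0.71 ± 0.08 in the CBFA2T2 knockout, both called. Without a wild-type library the Slc2a3 call in the PRDM14-labelled group was lost (adjusted p = 0.0543, 0.0818 and 0.0888 with replicate 1, 2 or 3 left out).

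Slc2a1 encodes GLUT1, the basal glucose transporter. It had 574, 577 and 504 CPM in the CBFA2T2 knockout, 879, 598 and 522 CPM in the PRDM14-labelled group and 693, 688 and 693 CPM in wild type. It was called in neither comparison (log2 fold changes -0.32 ± 0.16 in the CBFA2T2 knockout and -0.05 ± 0.16 in PRDM14-labelled cells). Slc2a1 is on chromosome 4, yet replicate 1 was again the high library of the PRDM14-labelled group, at 1.57 times the mean of the other two. Without that library Slc2a1 was called lower in the CBFA2T2 knockout (-0.32 ± 0.07) and in the PRDM14-labelled group (-0.30 ± 0.08, adjusted p = 0.0143). Per kilobase of exon, Slc2a3 made up 68.3 ± 0.82% of the RNA of these 2 glucose transporters in the CBFA2T2 knockout, 70.2 ± 3.9% in the PRDM14-labelled group and 51.2 ± 2.1% in wild type (SD, n = 3 each).

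In upper glycolysis, the steps from glucose to triose phosphate, 6 of 10 genes rose and 1 fell in the CBFA2T2 knockout (beside 38.5% of all genes called), and 8 rose and 0 fell in the PRDM14-labelled group (beside 29.9%). The hexokinases trap glucose in the cell. Hk1, the isoform of most adult tissues, had 86.3, 114 and 122 CPM in the CBFA2T2 knockout, 90.1, 144 and 93.0 CPM in the PRDM14-labelled group and 57.9, 52.8 and 49.7 CPM in wild type. It rose in both (log2 fold changes 1.00 ± 0.19 in CBFA2T2 knockout cells, adjusted p = 0.00246, and 1.03 ± 0.19 in the PRDM14-labelled group, adjusted p = 0.00296). Hk2, the inducible isoform and a known HIF target, was at 292, 285 and 299 CPM in the CBFA2T2 knockout, 664, 386 and 332 CPM in the PRDM14-labelled group and 450, 428 and 460 CPM in wild type. The CBFA2T2 knockout libraries were below wild type, while the PRDM14-labelled ones lay on both sides of it. Hk2 was called in neither comparison by edgeR with all libraries and no replicate block (-0.61 ± 0.22 in the CBFA2T2 knockout, adjusted p = 0.0625, and 0.05 ± 0.22 in PRDM14-labelled cells, adjusted p = 0.897). Without replicate 1 of the PRDM14-labelled group it was called lower in both, by -0.61 ± 0.07 in the CBFA2T2 knockout and -0.31 ± 0.08 in the PRDM14-labelled group (adjusted p = 0.00986). In the CBFA2T2 knockout it was also called lower by limma-voom with all 9 libraries (adjusted p = 0.0213) and without replicate 3 of the PRDM14-labelled group (0.0246). The same held in edgeR with the replicate number as a block (0.0400) and with compared groups only (2.00e-06). Hk1 made up 20.4 ± 2.8% of hexokinase RNA per kilobase in the CBFA2T2 knockout, 15.3 ± 6.1% in the PRDM14-labelled group and 7.75 ± 0.64% in wild type (Hk1 and Hk2 together, SD, n = 3 each).

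Phosphofructokinase catalyses the committed step of glycolysis and has liver (Pfkl), muscle (Pfkm) and platelet (Pfkp) isoforms, and these 3 genes moved differently. Pfkl had 371 to 446 CPM in the CBFA2T2 knockout, 403 to 487 CPM in the PRDM14-labelled group and 306 to 317 CPM in wild type. This was a rise of 0.37 ± 0.09 in CBFA2T2 knockout cells and 0.53 ± 0.09 in the PRDM14-labelled group on the log2 scale. Pfkm, at 43.6 to 55.6 CPM in all libraries, was not called. Pfkp (ENSMUSG00000021196, chromosome 13, 6579768 to 6648777) had 95.0, 102 and 102 CPM in the CBFA2T2 knockout, 163, 173 and 164 CPM in the PRDM14-labelled group and 135, 133 and 132 CPM in wild type. The 3 groups did not overlap, with the CBFA2T2 knockout lowest and the PRDM14-labelled group highest. Pfkp fell by 0.42 ± 0.07 on the log2 scale in the CBFA2T2 knockout (adjusted p = 3.73e-04) and rose by 0.33 ± 0.07 in the PRDM14-labelled group (adjusted p = 0.00289). Its share of phosphofructokinase RNA per kilobase was 9.02 ± 0.39% in the CBFA2T2 knockout, 13.3 ± 0.57% in the PRDM14-labelled group and 13.7 ± 0.075% in wild type. Pfkl held 72.8 ± 2.2% in the CBFA2T2 knockout, 71.4 ± 1.9% in the PRDM14-labelled group and 64.2 ± 0.78% in wild type (SD, n = 3 each). Pfkfb3, which makes the fructose bisphosphate that activates phosphofructokinase, rose by 0.62 ± 0.17 in the CBFA2T2 knockout and 0.81 ± 0.17 in PRDM14-labelled cells. The call in the CBFA2T2 knockout was lost without wild-type replicate 2 (adjusted p = 0.0503).

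The other upper steps rose in each knockout group, save Tpi1 in 1 of them. Gpi1, glucose phosphate isomerase, had 856, 879 and 1028 CPM in the CBFA2T2 knockout, 1252, 1090 and 1049 CPM in the PRDM14-labelled group and 762, 721 and 715 CPM in wild type. Its log2 fold changes were 0.33 ± 0.09 in CBFA2T2 knockout cells and 0.63 ± 0.09 in the PRDM14-labelled group. Aldoa, the main aldolase, was the most abundant of the 36 per kilobase, at 696 ± 50.1 RPKM in the CBFA2T2 knockout, 819 ± 38.6 RPKM in the PRDM14-labelled group and 533 ± 5.46 RPKM in wild type (SD, n = 3 each). It rose by 0.39 ± 0.07 in the CBFA2T2 knockout and 0.62 ± 0.07 in PRDM14-labelled cells. Aldoc, the brain isoform, rose more in proportion (0.91 ± 0.13 in CBFA2T2 knockout cells and 1.24 ± 0.13 in the PRDM14-labelled group) but made up 1.51% of aldolase RNA per kilobase in the CBFA2T2 knockout, 1.61% in the PRDM14-labelled group and 1.05% in wild type. Triose phosphate isomerase, Tpi1, had 541, 547 and 590 CPM in the CBFA2T2 knockout, 920, 663 and 697 CPM in the PRDM14-labelled group and 486, 472 and 458 CPM in wild type. It rose in the PRDM14-labelled group (0.69 ± 0.10, or 0.53 ± 0.07 without replicate 1) but was not called in the CBFA2T2 knockout (0.24 ± 0.10, adjusted p = 0.0797). There it was called under 4 of the alternatives, among them the fits without replicate 1 (adjusted p = 0.00864) or 2 (0.0470) of the PRDM14-labelled group and library totals alone (0.0229).

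Lower glycolysis runs from glyceraldehyde phosphate to pyruvate. Of its 6 genes, 1 rose and 1 fell in the CBFA2T2 knockout (33.3% called, below the 38.5% of all genes), and 4 rose and 0 fell in the PRDM14-labelled group (66.7%, beside 29.9%). Phosphoglycerate mutase, Pgam1 (ENSMUSG00000011752, chromosome 19, 41911871 to 41918664), had 43.7, 43.4 and 54.4 CPM in the CBFA2T2 knockout, 86.1, 93.5 and 101 CPM in the PRDM14-labelled group and 83.2, 73.9 and 88.7 CPM in wild type. It fell by 0.80 ± 0.11 in the CBFA2T2 knockout (adjusted p = 7.36e-05) but missed the threshold in PRDM14-labelled cells (0.19 ± 0.11, adjusted p = 0.197). Summed with copies that held 3.9 times its counts, the fall in the CBFA2T2 knockout was 0.25 ± 0.06. Phosphoglycerate kinase, Pgk1 (ENSMUSG00000062070, chromosome X, 106187100 to 106203699), which makes the first ATP of the pathway, had 64.2, 59.4 and 73.8 CPM in the CBFA2T2 knockout, 99.9, 109 and 130 CPM in the PRDM14-labelled group and 59.8, 48.1 and 60.7 CPM in wild type. The PRDM14-labelled libraries were above all others (1.00 ± 0.12, adjusted p = 5.99e-05), while the CBFA2T2 knockout overlapped wild type (0.22 ± 0.12, adjusted p = 0.169). Summed with its near-identical copies, which held 10.8 times its counts, Pgk1 was called higher in the CBFA2T2 knockout too (0.50 ± 0.07, adjusted p = 6.19e-05). Pyruvate kinase, Pkm (ENSMUSG00000032294, chromosome 9, 59656368 to 59679375), was at 1203, 1190 and 1338 CPM in the CBFA2T2 knockout, 1629, 1735 and 1869 CPM in the PRDM14-labelled group and 1312, 1380 and 1435 CPM in wild type. It rose in the PRDM14-labelled group (0.34 ± 0.07, adjusted p = 0.00363) and missed the threshold in the CBFA2T2 knockout (-0.14 ± 0.07, adjusted p = 0.141). The counts do not separate the 2 splice forms of Pkm.

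Enolase makes phosphoenolpyruvate. Eno1, the ubiquitous form, had 741 to 796 CPM in the CBFA2T2 knockout, 807 to 923 CPM in the PRDM14-labelled group and 654 to 689 CPM in wild type, groups that did not overlap. It rose in the PRDM14-labelled group (0.37 ± 0.07) and stood just outside the threshold in the CBFA2T2 knockout (0.18 ± 0.07, adjusted p = 0.0568), which it passed under 9 of 19 alternatives (adjusted p = 0.00842 to 0.0491). Eno2, the neuronal form, was at 7.35, 15.4 and 8.46 CPM in the CBFA2T2 knockout, 12.6, 14.6 and 10.01 CPM in the PRDM14-labelled group and 5.997, 5.40 and 4.76 CPM in wild type. It rose by 0.96 ± 0.27 in the CBFA2T2 knockout and by 1.20 ± 0.27 in PRDM14-labelled cells (without replicate 1 of the PRDM14-labelled group, 0.96 ± 0.27 in the CBFA2T2 knockout and 1.19 ± 0.30 in PRDM14-labelled cells). The CBFA2T2 knockout call was lost without replicate 2 of that group (adjusted p = 0.0742) or wild-type replicate 3 (adjusted p = 0.0550). Gapdh, often taken as an unchanging control, had 97.8, 89.1 and 111 CPM in the CBFA2T2 knockout, 186, 117 and 130 CPM in the PRDM14-labelled group and 110, 125 and 109 CPM in wild type. It was not called in either comparison, save in the PRDM14-labelled group without its replicate 2 (0.46 ± 0.14, adjusted p = 0.0372).

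At the fate of pyruvate, Ldhb changed most of the 36 genes in each comparison with wild type. Ldhb (ENSMUSG00000030246, chromosome 6, 142490249 to 142507957) encodes the heart-type subunit of lactate dehydrogenase. Its level was 482, 444 and 446 CPM in the CBFA2T2 knockout, 474, 385 and 339 CPM in the PRDM14-labelled group and 134, 116 and 107 CPM in wild type. Every knockout library was far above every wild-type library, 3.84-fold on average in the CBFA2T2 knockout (log2 1.94 ± 0.12, adjusted p = 2.90e-07) and 3.36-fold in the PRDM14-labelled group (1.75 ± 0.12, adjusted p = 1.09e-06, or 1.61 ± 0.10 without replicate 1). Ldha, the muscle-type subunit and a known HIF target, had 818 to 870 CPM in the CBFA2T2 knockout, 976 to 1127 CPM in the PRDM14-labelled group and 760 to 774 CPM in wild type. It rose in the PRDM14-labelled group (0.45 ± 0.07, adjusted p = 3.11e-04) and missed the threshold in the CBFA2T2 knockout (0.15 ± 0.07, adjusted p = 0.101). Per kilobase of the union of exons, Ldhb thus made up 53.1 ± 0.86% of lactate dehydrogenase RNA in the CBFA2T2 knockout, 44.4 ± 5.2% in the PRDM14-labelled group and 24.6 ± 2.2% in wild type (SD, n = 3 each). These shares depend on the length used. The union is 1570 bases for Ldhb and 3310 for Ldha, and the longest coding transcripts have 1304 and 1815. Near-identical copies of Ldha, with 0.338 times its counts, are left out of the shares. Pdk1, the kinase that shuts pyruvate out of the citrate cycle and a known HIF target, moved the other way. It had 120, 131 and 164 CPM in the CBFA2T2 knockout, 200, 148 and 149 CPM in the PRDM14-labelled group and 286, 290 and 297 CPM in wild type. This was a fall of 1.07 ± 0.13 in the CBFA2T2 knockout (adjusted p = 6.84e-05) and 0.81 ± 0.13 in PRDM14-labelled cells (adjusted p = 6.93e-04) on the log2 scale.

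Hif1a itself fell. It had 145, 159 and 140 CPM in the CBFA2T2 knockout, 147, 159 and 144 CPM in the PRDM14-labelled group and 181, 197 and 203 CPM in wild type, so that all 6 knockout libraries were below wild type. The log2 fold changes were -0.39 ± 0.08 in CBFA2T2 knockout cells (adjusted p = 0.00162) and -0.37 ± 0.08 in the PRDM14-labelled group (adjusted p = 0.00315). Egln1, the main prolyl hydroxylase that marks the HIF alpha subunits for destruction and itself a HIF target, was at 130, 147 and 160 CPM in the CBFA2T2 knockout, 178, 198 and 136 CPM in the PRDM14-labelled group and 76.9, 74.3 and 69.9 CPM in wild type. It rose by 0.99 ± 0.12 in the CBFA2T2 knockout (adjusted p = 6.24e-05) and 1.21 ± 0.12 in PRDM14-labelled cells (adjusted p = 2.05e-05). Egln3, the hydroxylase induced by hypoxia in many cell types, had 79.1, 63.6 and 91.9 CPM in the CBFA2T2 knockout, 116, 99.1 and 111 CPM in the PRDM14-labelled group and 110, 101 and 103 CPM in wild type. It fell in the CBFA2T2 knockout by 0.42 ± 0.12 (adjusted p = 0.0107, or 0.0531 without replicate 2) but not, at 0.06 ± 0.11, in PRDM14-labelled cells.

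Among the 10 other HIF targets of the set, 6 rose and 0 fell in the CBFA2T2 knockout (beside 38.5% of all genes called) and 7 rose and 0 fell in the PRDM14-labelled group (beside 29.9%). P4ha1 and P4ha2, subunits of the enzyme that hydroxylates collagen prolines, rose by 1.09 ± 0.12 and 0.85 ± 0.13 in the CBFA2T2 knockout and by 1.32 ± 0.12 and 1.14 ± 0.13 in the PRDM14-labelled group. For P4ha1 the levels behind this were 83.4, 109 and 102 CPM in the CBFA2T2 knockout, 110, 127 and 107 CPM in the PRDM14-labelled group and 52.9, 41.6 and 43.2 CPM in wild type, with no overlap of knockout and wild type. Bnip3, a mitophagy receptor, had 143, 145 and 157 CPM in the CBFA2T2 knockout, 201, 191 and 172 CPM in the PRDM14-labelled group and 104, 83.3 and 90.4 CPM in wild type (0.68 ± 0.09 in CBFA2T2 knockout cells and 1.02 ± 0.09 in the PRDM14-labelled group). Its relative Bnip3l was called in the PRDM14-labelled group (0.35 ± 0.10, adjusted p = 0.0158, lost without replicate 2 of that group, adjusted p = 0.0639, or wild-type replicate 3, adjusted p = 0.0563), with 0.24 ± 0.10 in the CBFA2T2 knockout. Ero1l, an oxidase of disulfide bond formation in the endoplasmic reticulum, rose by 0.77 ± 0.11 in the CBFA2T2 knockout and 1.09 ± 0.11 in PRDM14-labelled cells. Ak4, a mitochondrial adenylate kinase, rose by 0.46 ± 0.12 in CBFA2T2 knockout cells and 0.83 ± 0.12 in the PRDM14-labelled group. The stress-responsive Ndrg1 rose by 0.70 ± 0.17 in the CBFA2T2 knockout and 1.14 ± 0.17 in PRDM14-labelled cells. For Ndrg1 the PRDM14-labelled libraries were spread, at 74.2, 77.8 and 48.8 CPM, beside 44.2, 55.1 and 49.0 CPM in the CBFA2T2 knockout and 35.5, 25.9 and 29.2 CPM in wild type. Car9, the carbonic anhydrase much used as a hypoxia marker, was the lowest of the 36 per kilobase, at 0.776 to 1.34 CPM in the CBFA2T2 knockout, 0.850 to 1.52 CPM in the PRDM14-labelled group and 0.898 to 1.20 CPM in wild type. It was not called at this depth. Ankrd37, a small ankyrin-repeat gene, had 7.61 to 9.49 CPM in the CBFA2T2 knockout, 11.1 to 11.9 CPM in the PRDM14-labelled group and 5.77 to 10.5 CPM in wild type. The histone demethylase Kdm3a had 140 to 177 CPM in the CBFA2T2 knockout, 174 to 267 CPM in the PRDM14-labelled group and 180 to 199 CPM in wild type. Neither was called against wild type with all libraries, but without replicate 1 of the PRDM14-labelled group Kdm3a was called lower in the CBFA2T2 knockout (-0.30 ± 0.09, adjusted p = 0.0194).

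The 2 knockout groups were then compared directly. Of the 36 genes, 0 were higher and 4 lower in the CBFA2T2 knockout than in the PRDM14-labelled libraries, whereas 0.853% of all genes tested were called, 0.339% higher and 0.514% lower. The log2 difference was negative for 34 genes and positive for 2 (Ldhb and Pfkm), with a median of -0.29 beside -0.0035 over all genes. In 17 genes every CBFA2T2 knockout library lay below every PRDM14-labelled library, in 0 above, against 9.4% and 8.44% of all genes (17.8% in all). Under library totals alone 50% of all calls were higher in place of 39.7%, and the counts among the 36 were again 0 and 4. Pfkp differed by -0.74 ± 0.07 (adjusted p = 2.37e-04), Pgam1 by -0.99 ± 0.11 (adjusted p = 9.10e-04), Pkm by -0.49 ± 0.07 (adjusted p = 0.0103) and Pgk1 by -0.78 ± 0.12 (adjusted p = 0.0110). Pgk1 and Pkm lost the call without replicate 1 of the CBFA2T2 knockout (adjusted p = 0.0714 and 0.0658) or without its replicate 2 (0.0631 and 0.0610), and Pkm also in a fit on these 2 groups alone (0.0709). At an unadjusted p under 0.05 there were 20 genes, so that 16 of them did not pass the adjustment. The share of all genes at that threshold was not counted, so the 20 are not read as an excess. The count of 4 is itself sensitive, at 8 with no filter on low counts, 10 by DESeq2 and 2 to 9 with each library left out in turn.

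**Figure D3:**
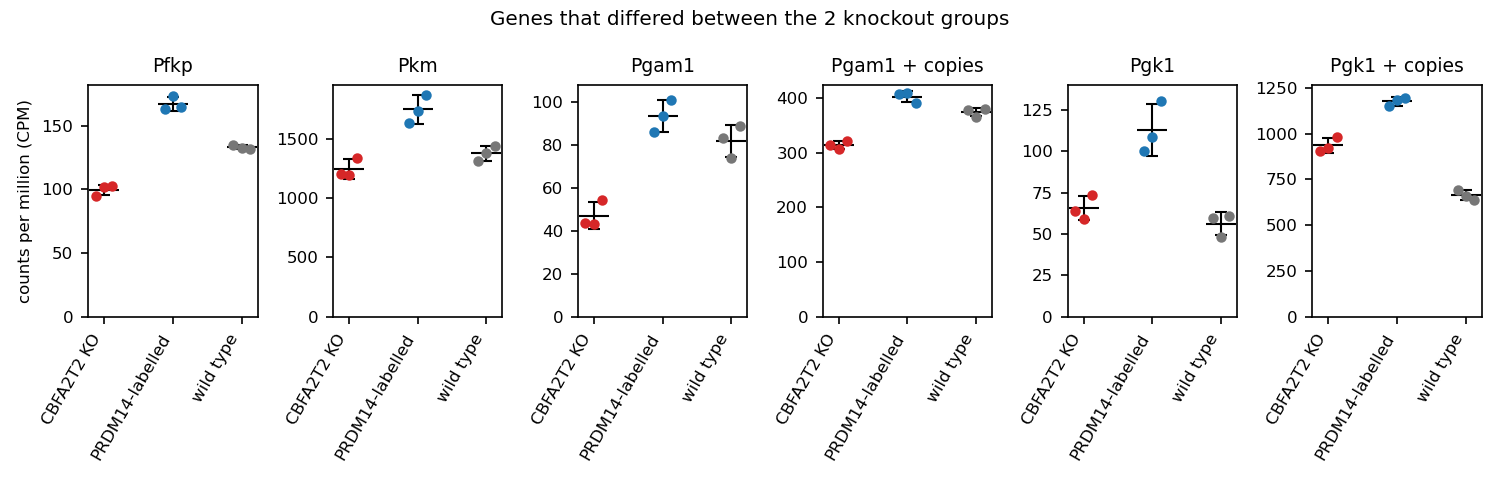
CPM of the 4 genes called in the direct comparison of the knockout groups, as 1 point per library with the mean and SD of each group (y axis from 0, a scale for each panel), and, for Pgam1 and Pgk1, of the gene summed with its near-identical copies. The CBFA2T2 knockout points lie below the PRDM14-labelled ones in all 6 panels, and the gap is smaller, in proportion, once the copies are added (-0.36 for Pgam1 and -0.33 for Pgk1 on the log2 scale).

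Near-identical copies share reads with several of these genes, and the way the authors placed such reads is not given in the sources used here. A search of GENCODE M21 exons for copies with at least 90% identity over at least 300 bases, covering at least 50% of the copy, found 90 copies of 12 genes (Gpi1, Aldoa, Gapdh, Pgk1, Pgam1, Eno1, Pkm, Ldha, Ldhb, Bnip3, Bnip3l and Ak4). Copies took 10.8 times the counts of Pgk1 itself, 3.9 times those of Pgam1, 1.92 times those of Gapdh and 1.44 times those of Eno1, and the other 8 genes had ratios of at most 0.338. The 2 copies of Pgk1, Pgk1-rs7 on chromosome 12 and Gm5537 on chromosome 3, matched it at 100% and had nearly equal levels, 436 and 434 CPM in the CBFA2T2 knockout, 531 and 532 CPM in the PRDM14-labelled group and 306 and 302 CPM in wild type. Levels and changes of these 12 genes alone are uncertain for that reason. With the copies added, Eno1 (0.20 ± 0.07, adjusted p = 0.0443) and Ldha (0.19 ± 0.07, adjusted p = 0.0399) were called higher in the CBFA2T2 knockout, as Pgk1 was. The direct comparison still called Pgk1 and Pgam1 then, Pgk1 at -0.33 ± 0.06 (adjusted p = 0.0354) and Pgam1 at -0.36 ± 0.06 (adjusted p = 0.0247). Ldhb had 1 copy with 0.0396 times its counts and was at 1.95 ± 0.12 in CBFA2T2 knockout cells and 1.76 ± 0.12 in the PRDM14-labelled group with it.

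Genes on chromosome 6 were high in replicate 1 of the PRDM14-labelled group. The ratio of that library to the mean of the other two was over 1 for 7 of 7 genes there, from 1.02 (Eno2) through a median of 1.44 to 2.18 (Slc2a3), and over 1 for 14 of 29 genes elsewhere (0.759 to 1.58, median 0.997). DNA copy number was not measured, and its part in these values was not tested. Of the 29 genes on other chromosomes, 14 rose and 5 fell in the CBFA2T2 knockout (65.5% called, beside 38.5% of all genes). In the PRDM14-labelled group 20 of the 29 rose and 2 fell (75.9% called, beside 29.9% of all genes). Between the knockout groups, 4 of the 29 were lower in the CBFA2T2 knockout (13.8% called, beside 0.853% of all genes). Without replicate 1 altogether, Gapdh stood at -0.21 ± 0.09 in the CBFA2T2 knockout (adjusted p = 0.0860) and at 0.11 ± 0.10 in the PRDM14-labelled group in place of 0.33 ± 0.15, and Kdm3a, in the PRDM14-labelled group, at -0.03 ± 0.10 in place of 0.17 ± 0.15. In the CBFA2T2 knockout that fit called 20 of the 36 higher and 8 lower, beside 6829 of all 16878 genes in either direction. In the PRDM14-labelled group it called 24 of the 36 higher and 4 lower, beside 4970 of the 16878.

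**Figure D4:**
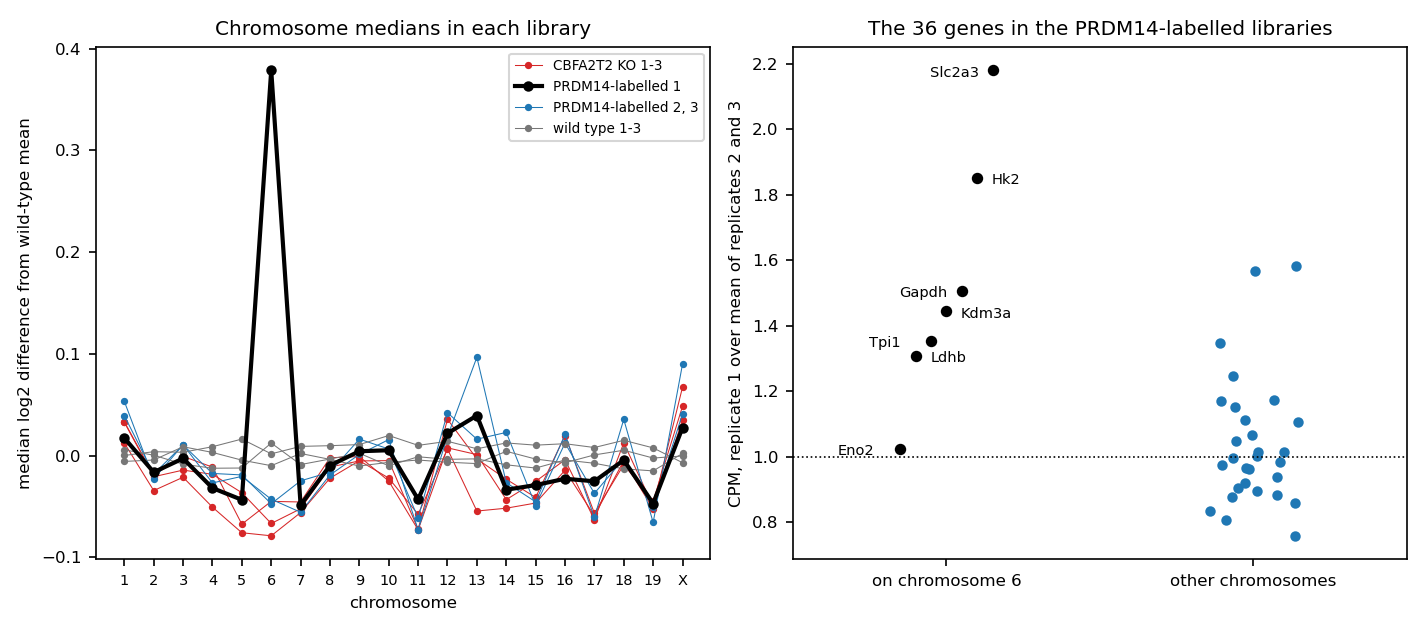
Left, the median log2 difference from the wild-type mean over the genes of each chromosome (x axis) in each library; right, for the 36 genes, CPM in replicate 1 of the PRDM14-labelled group divided by the mean of replicates 2 and 3, on chromosome 6 and elsewhere. The black line peaks at 0.38 on chromosome 6, and all 7 genes there lie above 1.

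The rest of the pathway was read from lists of genes outside the 36. Of 43 further HIF targets tested, 22 rose and 2 fell in the CBFA2T2 knockout (55.8% called, beside 38.5% of all genes, median log2 fold change 0.32). In the PRDM14-labelled group 21 rose and 0 fell (48.8% called, beside 29.9% of all genes, median 0.53). Ddit4, an inhibitor of mTOR signalling, averaged 239 CPM in the CBFA2T2 knockout, 229 CPM in the PRDM14-labelled group and 111 CPM in wild type (log2 fold changes 1.10 ± 0.08 in the CBFA2T2 knockout and 1.04 ± 0.08 in PRDM14-labelled cells). The carbonic anhydrase Car12 averaged 15.3 CPM in the CBFA2T2 knockout, 9.73 CPM in the PRDM14-labelled group and 3.68 CPM in wild type (2.04 ± 0.20 in CBFA2T2 knockout cells and 1.40 ± 0.20 in the PRDM14-labelled group). Pgm2, a phosphoglucomutase, rose by 0.86 ± 0.11 in the CBFA2T2 knockout and 1.24 ± 0.11 in PRDM14-labelled cells. Among 16 regulators of HIF, 2 rose and 4 fell in the CBFA2T2 knockout (37.5% called, near the 38.5% of all genes) and 2 rose and 6 fell in the PRDM14-labelled group (beside 29.9% of all genes called). Epas1, the HIF alpha subunit also called HIF2A, averaged 9.22 CPM in the CBFA2T2 knockout, 15.5 CPM in the PRDM14-labelled group and 77.0 CPM in wild type. This fall came to 3.06 ± 0.29 in CBFA2T2 knockout cells (adjusted p = 4.60e-05) and 2.31 ± 0.27 in the PRDM14-labelled group (adjusted p = 2.87e-04) on the log2 scale. Hif3a, whose product can restrain the other subunits, rose by 1.49 ± 0.27 in the CBFA2T2 knockout and 1.13 ± 0.27 in PRDM14-labelled cells. Thus the RNA of 2 HIF alpha subunits was lower while more of the listed target genes were higher than lower, and HIF protein was not measured.

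Of 18 other glycolytic isozymes and regulators tested, 7 rose and 3 fell in the CBFA2T2 knockout (55.6% called, beside 38.5% of all genes). In the PRDM14-labelled group 4 rose and 2 fell (33.3% called, near the 29.9% of all genes). Bsg, the chaperone of the lactate transporters, rose by 0.42 ± 0.07 in CBFA2T2 knockout cells and 0.65 ± 0.07 in the PRDM14-labelled group. Pfkfb2 rose by 0.84 ± 0.13 in the CBFA2T2 knockout and 0.64 ± 0.13 in PRDM14-labelled cells. Gpd2, the mitochondrial glycerol phosphate dehydrogenase, fell by 0.90 ± 0.09 in CBFA2T2 knockout cells and 0.80 ± 0.09 in the PRDM14-labelled group. Pathways that branch from glycolysis or follow it were counted in the same way. In the pentose phosphate pathway 0 of 9 genes rose and 3 fell in the CBFA2T2 knockout (33.3% called). Of all genes, 38.5% were called there, 19.6% of them as lower genes. In the PRDM14-labelled group 0 rose and 2 fell (22.2% called), beside 29.9% of all genes in either direction and 15.3% lower. The entry enzyme G6pdx was at -0.26 ± 0.08 in the CBFA2T2 knockout and -0.35 ± 0.08 in PRDM14-labelled cells. Around pyruvate dehydrogenase and the pyruvate carrier, 2 of 13 rose and 4 fell in the CBFA2T2 knockout (46.2% called, beside 38.5% of all genes). In the PRDM14-labelled group 2 rose and 3 fell (38.5% called, beside 29.9% of all genes). In this list Pcx, pyruvate carboxylase, fell by 0.89 ± 0.13 in CBFA2T2 knockout cells and 0.54 ± 0.12 in the PRDM14-labelled group. Pdk4, a relative of Pdk1 on chromosome 6, rose by 0.69 ± 0.21 in the CBFA2T2 knockout and 0.93 ± 0.21 in PRDM14-labelled cells. In the citrate cycle 1 of 18 rose and 2 fell in the CBFA2T2 knockout, and 2 rose and 1 fell in the PRDM14-labelled group, 16.7% of the list in each comparison, below the share of all genes called. Between the knockout groups, edgeR called 0 of the 116 listed genes outside the 36, beside 0.853% of all genes. DESeq2 called 9 of the 116, beside 602 of all 16532 genes. At an unadjusted p under 0.05 in edgeR there were 25 of the 116, and the share of all genes at that threshold was not counted.

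**Figure D5:**
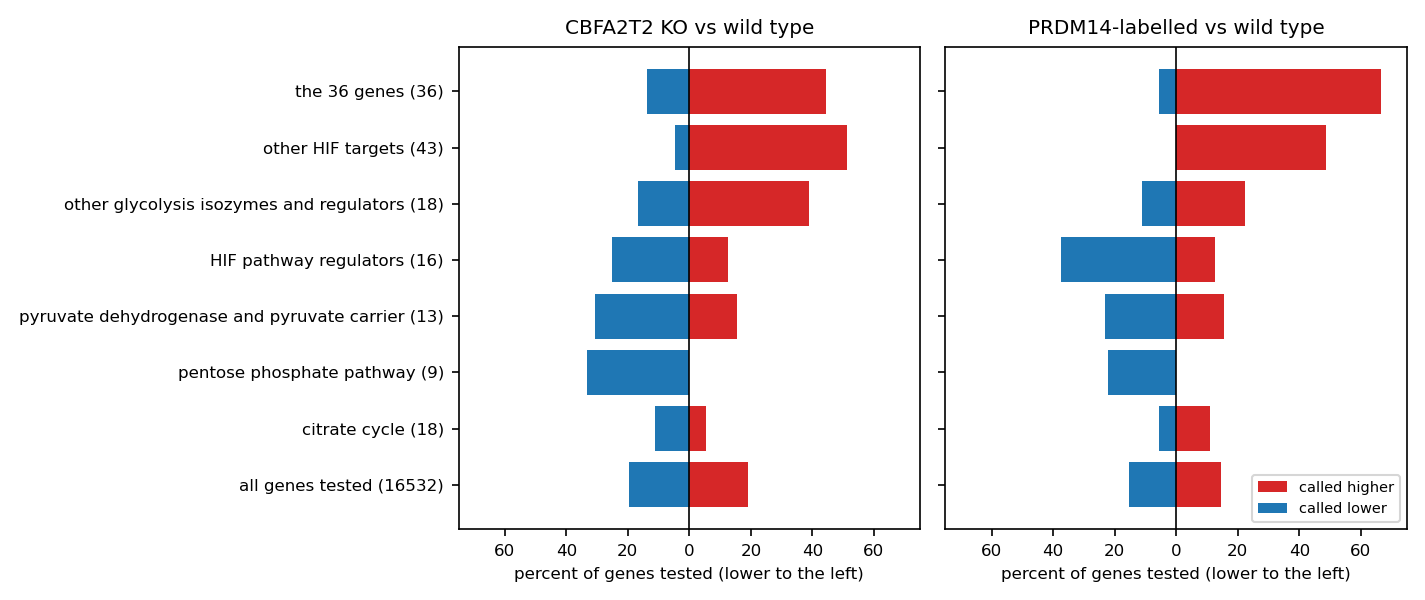
Percent of the genes tested in each list (number in brackets) that were called higher (red, right) or lower (blue, left) in the CBFA2T2 knockout and in the PRDM14-labelled group against wild type. The 36 genes and the further HIF targets lean to the right of all genes tested, while the citrate cycle has short bars and the pentose phosphate pathway has bars on the left alone.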

How the data were processed

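PolyA-selected RNA was made into stranded libraries by the dUTP method, per the labels' protocols. The authors deposited raw counts for each Ensembl gene, 1 table per library. The submitters' processing notes name Bowtie and mm9. The sources used here do not say how reads were counted, on which strand or with which annotation. The coordinates in the files match GRCm38 (GENCODE M21): chromosomes were equal for all 32860 shared gene IDs, and start and end for 78.1%. For 27 genes a symbol stored as a date was restored by ID. Of the 36 genes, 14 have exons that overlap another gene, and reads of such pairs may not be told apart.

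The test was that of edgeR 4.0.16 (R 4.3.3): filterByExpr (16532 genes), TMM scaling (factors 0.962 to 1.037), a robust quasi-likelihood fit of the 3 groups over all 9 libraries, two-sided tests and Benjamini-Hochberg adjustment over all genes of a comparison. A gene is called, or said to rise or fall, at an adjusted p under 0.05. The standard error is the log2 fold change divided by the square root of F. CPM use the library size over kept genes times its TMM factor; RPKM uses the union of exons in GENCODE M21. Groups and replicate numbers come from the labels, which give no batch or date. Libraries of a group differed by more than counting error (chi-square per degree of freedom 3.06 to 18.8). With no molecular identifiers in the reads, the true error is at least the counting error. The model was tested on simulated data.

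The 36 genes, their order by role and the other lists (glycolysis, pyruvate, pentose phosphate, citrate cycle, HIF, feeder and ES cell markers, 161 of 162 genes found) were chosen with earlier results of these data known. All 36 are named; from the other lists, up to 4 called genes by lowest adjusted p. Near-identical copies were found with blastn 2.17.0. Alternatives were DESeq2 size factors, library totals alone, no filter, a filter at a mean CPM of 5, limma-voom (limma 3.58.1), the Wald test of DESeq2 1.42.0, compared groups only, the replicate number as a block and each library left out in turn. A fit without chromosome 6 genes and another with copies added to their gene were chosen after seeing the data.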

Additional observations from a re-analysis of the deposited data

How the results depend on the processing

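Counts of the 36 genes that rose ranged from 15 to 20 in the CBFA2T2 knockout and from 22 to 24 in the PRDM14-labelled group with each library left out in turn. Counts that fell ranged from 4 to 8 in the CBFA2T2 knockout and from 2 to 4 in the PRDM14-labelled group, the higher ends without PRDM14-labelled replicate 1, and in the CBFA2T2 knockout 8 fell with compared groups only. Of all genes, 4800 to 6829 were called in the CBFA2T2 knockout and 3386 to 4970 in the PRDM14-labelled group with each library left out in turn. All genes called between the knockout groups numbered 141, against 328 with no filter on low counts, 602 by the DESeq2 Wald test, 24 with compared groups only and 24 to 597 with a library left out. Of the 36, 4 were lower in that comparison, against 8, 10 and 3 under the first 3 of these and 2 to 9 with a library left out (9 without PRDM14-labelled replicate 2, and 2 without CBFA2T2 knockout replicate 1 or 2). The replicate number as a block gave 392 genes and 7 of the 36. Same-numbered libraries correlated at -0.01 to 0.30 (3 of 9 pairs over 0.1) and differently numbered ones at -0.21 to 0.057. Between the knockout groups, same-numbered pairs correlated at 0.061, 0.30 and 0.13 and differently numbered ones at no more than 0.057. Pairing need not lift every pair, so these values do not decide whether the numbers pair samples. The main fit left the block out. With the block, Slc2a3 (adjusted p = 0.0496), Hk2 (0.0400) and Bnip3l (0.0492) were also called in the CBFA2T2 knockout, and Tpi1 (0.0407), Ldha (0.0421) and Egln3 (0.0217) between the knockout groups. Under every alternative run for the gene (18 for Car9 and for genes on chromosome 6, 19 for the others), 18 of 21 calls held in the CBFA2T2 knockout, 24 of 26 in the PRDM14-labelled group and 2 of 4 between them. Under at least 1 alternative, calls were gained by 9 genes in the CBFA2T2 knockout, 3 in the PRDM14-labelled group and 7 between them. Slc2a3 in the PRDM14-labelled group also lost its call with no filter (adjusted p = 0.0540) and with compared groups only (adjusted p = 0.0674). No called value changed sign. Of uncalled log2 values, some did. In the CBFA2T2 knockout, with a library left out, Slc16a1 ran from -0.066 to 0.080, Car9 from -0.14 to 0.23 and Ankrd37 from -0.20 to 0.20. In the PRDM14-labelled group Slc2a1 ran from -0.30 to 0.10, Hk2 from -0.31 to 0.24 (-0.018 by limma-voom), Car9 from -0.11 to 0.32 and Kdm3a from -0.025 to 0.30. Between the knockout groups Slc2a3 ran from -0.67 to 0.0061, Hk1 from -0.15 to 0.23 (0.0077 by library totals), Car9 from -0.29 to 0.17 and Hif1a from -0.073 to 0.023 (0.013 by library totals). Causes were not tested. Car9, near 1 CPM, has the fewest counts of the 36.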
